A study of Mus musculus with 9 samples.

Results

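Solute carrier genes encode the membrane transporters that move amino acids, sugars, ions, organic acids and other small molecules in and out of cells and organelles. They were taken here as every gene of the deposited sample table whose symbol has the form of Slc, a family number, the letter a and a member number, leaving out Slc3a2, Slc7a5 and Slc25a35. The rule gave 45 of the 2889 genes in the table. One of the 45, Slc9a3r1, is carried in by its spelling only: it encodes NHERF1, a scaffold protein that holds transporters at the membrane and transports nothing itself, and it was set apart from the ion carriers after the table was seen. The other members were put into 5 classes by substrate: 9 for amino acids and peptides, 5 for sugars and nucleotide sugars, 7 for ions and metals, 10 carriers of the inner mitochondrial membrane and 13 for other organic solutes.

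The cells were T cells carrying CD3, isolated by negative selection from spleens of wild-type C57BL/6 mice, 3 in number, and split between the media so that every mouse is found once in every group. The control group was incubated for 4 h in unconditioned RPMI, a second group in medium conditioned by adipocytes and the remaining group in medium conditioned by stromal cells. The sources used here give neither the age of the mice nor the source of the conditioning cells. RNA was read from SMART-seq v4 cDNA, primed at poly(A) tails, in Nextera XT libraries that do not keep strand. Values are normalized counts, that is, read counts that the authors divided by 1 size factor per sample.

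Between 6522742 and 13758643 reads lay on the listed genes in each of the 9 libraries. All 2889 genes were already in the authors' tables of changed genes, so they had been selected on these same samples. Of the T cell markers 5 of 20 were listed, with a summed level of 103410 to 115370 normalized counts in unconditioned, 88751 to 91890 in stromal and 42462 to 44070 in adipocyte medium. Markers of other cells were also present. The 5 of 16 listed macrophage and monocyte markers summed to 3057 to 6455 in unconditioned, 3197 to 8136 in stromal and 315 to 735 in adipocyte medium. The 5 of 14 listed B cell markers summed to 1925 to 2540, 1443 to 2559 and 481 to 519 in the same order, and the 6 of 11 neutrophil markers to 1773 to 2643, 1818 to 3253 and 285 to 983. Natural killer markers, 2 of 6 listed, summed to 10368 to 11390 in unconditioned, 4329 to 4816 in stromal and 5416 to 5866 in adipocyte medium. The 4 of 7 listed dendritic cell markers spanned 429 to 493, 432 to 590 and 373 to 498, and among them Clec9a was at 0 in 1 adipocyte and 1 stromal library. The sums cover genes that moved apart. By the test given below, Xcr1 was higher and 3 dendritic markers lower in adipocyte against unconditioned medium. There Ngp was higher and 5 neutrophil markers lower. Of the macrophage and monocyte markers 4 were lower there, Cd14 being not past the threshold. In stromal medium Cd14 had a log2 fold change of 1.99. All 5 listed B cell and 5 T cell markers were lower in adipocyte medium. Among all genes tested 63.4% were lower and 33.8% higher. Of 9 adipocyte markers only Lpl was listed, at 28.6 to 105 in unconditioned, 156 to 193 in stromal and 0 to 12.7 in adipocyte medium, and of 8 stromal markers none was listed. Whether these other cells had a part in the levels of the transporters was not tested. Fewer cells of a type and less RNA per cell cannot be told apart in these bulk samples.

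Resting T cells take up little nutrient. On activation they place amino acid and glucose transporters in the plasma membrane, and supply of glutamine, leucine and arginine gates the mTORC1 kinase. Amino acid shortage acts through the transcription factor ATF4, which is known to raise several transporter genes. Inside the cell, the SLC25 carriers of the inner mitochondrial membrane exchange citrate, malate, nucleotides, acylcarnitines and other metabolites between the matrix and the cytosol, and so join the tricarboxylic acid cycle to synthesis and redox balance outside it.

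Against unconditioned medium, adipocyte medium left 18 of the 45 genes higher and 27 lower (limma-trend, Benjamini-Hochberg adjusted p under 0.05 over 2868 genes tested), against a background of 33.8% higher and 63.4% lower, 97.2% in all, among all genes tested. Since the authors' own adipocyte table was one of those from which the genes had been chosen, and 43 of the 45 are in it, the number of these calls repeats that choice and is no independent evidence. The median log2 fold change of the members was -1.17, beside -1.03 for all genes tested. Log2 fold changes are on the log2(value + 1) scale throughout, which understates the change of low genes. In stromal medium 12 members were higher, 16 lower and 17 not past the threshold, against 21.1% higher and 36.6% lower, 57.7% in all, among all genes. Here the members' median was -0.17, which was also the median of all genes. In the direct contrast of adipocyte with stromal medium 15 were higher, 24 lower and 6 not past the threshold, against 33.8% and 57.2%, 91.0% in all, with a median of -0.65 beside -0.60. The transporters as a group thus followed the selected genes as a whole, and the account below turns on which of them went which way. The heat map by substrate class shows the members of each class split between rises and falls.

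**Figure D1:**
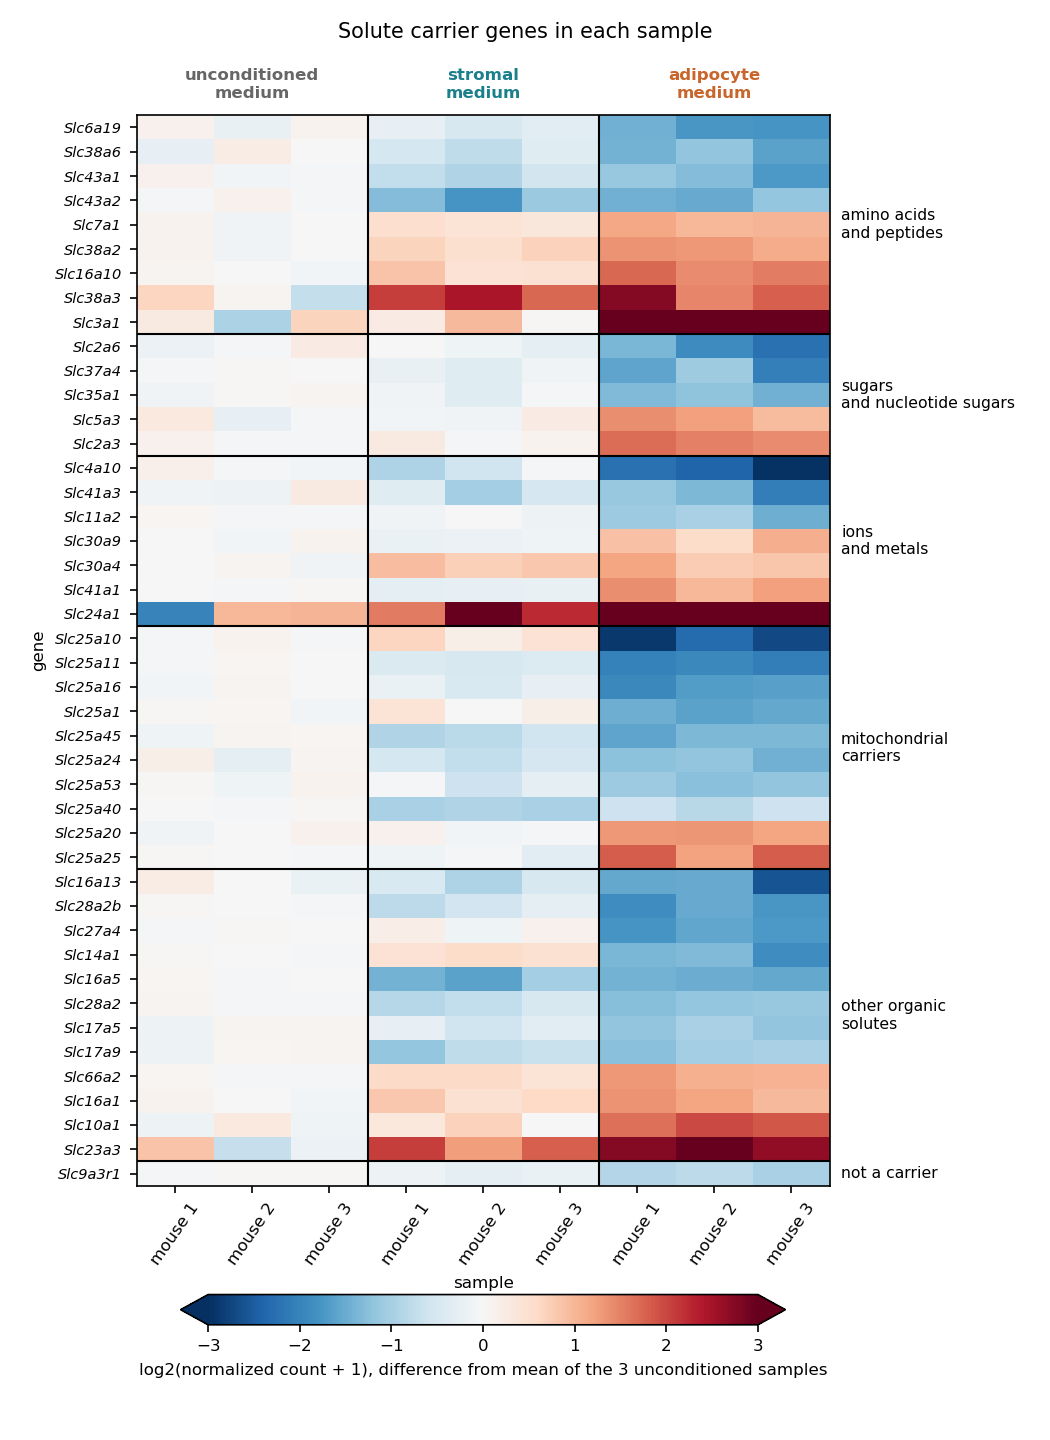
Log2 difference of 44 of the 45 genes (rows, by substrate class) from its mean in unconditioned medium, in each of the 9 samples (columns), with the colour scale bounded at -3 and 3. For most genes adipocyte samples carry the strongest colours, Slc25a40 being among the exceptions, and 17 of the genes drawn are higher and 27 lower there.

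The scale matters for the falls. Rescaling the samples by the median of ratios over the listed genes shifts the log2 fold changes up by a median of 0.93 in adipocyte against unconditioned, by 0.36 in stromal against unconditioned and by 0.57 in adipocyte against stromal medium, relative to the authors' scaling. Under it the same 18 genes stayed higher in adipocyte medium and 20 of the 27 stayed lower. Those that lost the call were Slc11a2, Slc17a5, Slc17a9, Slc25a40, Slc25a53, Slc38a6 and Slc9a3r1. The stromal split moved from 12 higher and 16 lower to 16 higher and 6 lower. That between the conditioned media went from 15 and 24 to 20 and 15. Of all 2868 genes tested, rescaling left 1078 higher and 1047 lower in adipocyte medium and 1129 and 561 in stromal medium. Between the conditioned media it left 1172 and 1091. The rises in both media are called under both scalings, but an upward shift enlarges every rise, so this is no independent evidence for them. The factors also come from the listed genes, and 63.4% of all genes tested were called lower in adipocyte medium. Of the 16 stromal falls 10 are called only under the scaling of the authors, those of Slc6a19, Slc43a1, Slc41a1, Slc41a3, Slc25a11, Slc25a16, Slc25a24, Slc17a5, Slc28a2b and Slc9a3r1.

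Among the 9 amino acid transporters, 5 were higher and 4 lower in adipocyte medium, beside 33.8% and 63.4% of all genes tested. Their median was 1.06, but -0.16 over those with a mean of at least 50. In stromal medium 4 were higher and 3 lower, beside 21.1% and 36.6%, with a median of 0.41. The most abundant was Slc38a2 (ENSMUSG00000022462), which encodes SNAT2, a sodium-coupled importer of glutamine and other small neutral amino acids and a known ATF4 target. Its normalized counts in mice 1, 2 and 3 were 23783, 20590 and 22041 in unconditioned, 35061, 30962 and 35816 in stromal and 56289, 54647 and 47743 in adipocyte medium. The 3 groups did not overlap and stood in that order in every mouse. The log2 fold change was 1.25 (SE 0.10, adjusted p = 1.28e-07) in adipocyte and 0.62 (adjusted p = 0.000195) in stromal medium, and the direct contrast was 0.64 (adjusted p = 5.54e-05). Slc7a1 (ENSMUSG00000041313), which encodes CAT1, the main importer of arginine and lysine, had 2222, 1906 and 2039 normalized counts in unconditioned, 2932, 2712 and 2591 in stromal and 4604, 4062 and 4170 in adipocyte medium. It too stood in that order in every mouse with no overlap, and rose by 1.06 (SE 0.09, adjusted p = 1.75e-07) and 0.42 (adjusted p = 0.00133). Slc16a10, which encodes a carrier of aromatic amino acids, rose by 1.56 on the log2 scale, from 168 ± 9.24 to 497 ± 56.6 (SD, n = 3), in adipocyte medium and by 0.58 in stromal medium, where it reached 254 ± 41.4.

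Slc3a1 (ENSMUSG00000024131) encodes rBAT, the heavy chain that brings a light chain for cystine and basic amino acids to the membrane and is best known from kidney. Its normalized counts were 30.0, 12.2 and 39.9 in unconditioned, 29.2, 48.8 and 25.2 in stromal and 229, 247 and 223 in adipocyte medium. Only the adipocyte samples stood apart. On the log2 scale the change was 3.19 (SE 0.40, adjusted p = 5.26e-06) there and 0.41 (adjusted p = 0.391) in stromal medium, and the direct contrast was 2.78 (adjusted p = 2.78e-05). Of the exon bases of this gene, 26.5% are shared with Prepl on the opposite strand in the GENCODE annotation, and reads of the 2 genes cannot be told apart without strand. Slc38a3, which encodes the glutamine transporter SNAT3, rose by 2.00 in adipocyte and by 2.08 in stromal medium, on few reads, with a lowest library of 8; it is singled out here after its values were seen.

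The transporters of neutral and large amino acids on the other side of the class went down. Slc6a19 (ENSMUSG00000021565) encodes B0AT1, the sodium-driven importer of neutral amino acids in gut and kidney. It had 5558, 4332 and 5471 normalized counts in unconditioned, 4299, 3667 and 4047 in stromal and 1860, 1507 and 1495 in adipocyte medium. The adipocyte samples were all under the others and the log2 fold change was -1.66 (SE 0.12, adjusted p = 5.96e-08). In stromal medium it was -0.35 (adjusted p = 0.0226), a call that ended without unconditioned replicate 1 (adjusted p = 0.0931), unconditioned replicate 3 (0.0896) or stromal replicate 2 (0.0879). Slc43a2 (ENSMUSG00000038178), which encodes LAT4, a facilitated carrier of leucine and other large neutral amino acids, went from 5205, 5914 and 5264 in unconditioned to 2225, 1603 and 2505 in stromal and 2012, 1905 and 2420 in adipocyte medium. Both conditioned groups lay apart from the unconditioned samples and overlapped each other. The log2 fold changes were -1.39 (SE 0.15, adjusted p = 7.7e-06) in stromal and -1.38 (adjusted p = 1.35e-06) in adipocyte medium, and the contrast between the media was 0.02 (SE 0.15, adjusted p = 0.906). On the rescaled values Slc43a2 is called higher in adipocyte than in stromal medium. Its paralog Slc43a1, which encodes LAT3 with the same kind of substrate, fell by 1.39 and by 0.73 on the log2 scale. Slc38a6, an orphan of the SNAT family, went from 149 ± 24.4 to 55.8 ± 8.52 (SD, n = 3) in adipocyte medium, a fall of 1.40 on the log2 scale.

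Of genes related to these carriers, Slc3a2, the heavy chain 4F2hc left out of the set, had a log2 fold change of 2.56 in adipocyte and 0.74 in stromal medium, and Slc7a5, its leucine-importing light chain LAT1, 0.26 and 0.93. Of a list of 41 amino acid sensing and ATF4 pathway genes 18 were in the table. In adipocyte medium 11 of them were higher and 7 lower, with a median of 1.02, beside 33.8% higher and 63.4% lower among all genes tested. In stromal medium 14 were higher and 3 lower, with a median of 0.55, beside 21.1% and 36.6%. Rescaled, the counts were 11 and 3 in adipocyte and 15 and 1 in stromal medium. Of all 2868 genes tested, 1078 and 1047 were so called in adipocyte and 1129 and 561 in stromal medium. Atf4 itself had 1.99 in adipocyte medium, Atf3 2.34 and the leucine sensor gene Sesn1 -1.47. The list was drawn up with earlier results of these data known.

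Promoters of members of all classes were looked at for 3 short motifs, whichever way the genes moved. These were TTNCATCA, the core of the amino acid response element bound by ATF4, and TGCACNC, the core of the metal response element. The other was TGANTCA, a loose spelling of the AP-1 site that takes any middle base. RefSeq promoter windows of 300 bases in GRCm38.p6 were given for 36 of the 45 members, 45 windows in all, and both strands were searched. The amino acid response element core was in 2.22% of member windows against 3.97% of all 32851 windows. TGANTCA was in 8.89% against 7.81% and the metal response element core in 17.8% against 12.6%. Among the matched members, the amino acid response element core was in the window of Slc23a3 alone. TGANTCA was in those of Slc3a1, Slc7a1, Slc25a11 and Slc4a10. A match is a description of letters and not a site in use, and no match says only that the letters are not in that window. The 250 bases before the start of 4 of these genes are printed because the genes changed in adipocyte medium, in both directions, each 5′ to 3′ on the gene's own strand with the match in capitals. Slc3a1 lies at chr17:85028097-85028346 (+), Slc7a1 at chr5:148399905-148400154 (-), Slc25a11 at chr11:70647040-70647289 (-) and Slc23a3 at chr1:75133891-75134140 (-). The first base of the match is 140, 123, 144 and 160 bases before the start in that order, and in Slc23a3 the capitals are the motif read on the opposite strand.
Slc3a1: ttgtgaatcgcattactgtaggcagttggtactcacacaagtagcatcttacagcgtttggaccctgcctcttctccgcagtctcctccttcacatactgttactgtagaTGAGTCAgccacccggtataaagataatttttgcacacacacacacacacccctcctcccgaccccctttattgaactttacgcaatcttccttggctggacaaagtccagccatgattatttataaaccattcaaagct
Slc7a1: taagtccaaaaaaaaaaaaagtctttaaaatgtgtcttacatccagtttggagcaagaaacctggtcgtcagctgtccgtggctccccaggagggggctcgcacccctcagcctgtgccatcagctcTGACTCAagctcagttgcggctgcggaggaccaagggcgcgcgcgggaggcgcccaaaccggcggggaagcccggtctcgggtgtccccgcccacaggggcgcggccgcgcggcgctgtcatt
Slc25a11: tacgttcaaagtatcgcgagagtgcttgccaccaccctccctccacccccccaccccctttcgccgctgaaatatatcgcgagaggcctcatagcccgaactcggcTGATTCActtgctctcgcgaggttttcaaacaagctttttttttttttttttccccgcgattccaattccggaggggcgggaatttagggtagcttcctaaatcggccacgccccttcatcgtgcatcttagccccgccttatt
Slc23a3: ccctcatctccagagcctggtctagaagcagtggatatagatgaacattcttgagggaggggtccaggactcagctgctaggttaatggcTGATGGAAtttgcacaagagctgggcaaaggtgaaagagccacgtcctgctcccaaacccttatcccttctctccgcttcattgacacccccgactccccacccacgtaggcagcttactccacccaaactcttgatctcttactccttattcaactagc
Of the 4 genes with TGANTCA, Slc3a1 (TGAGTCA) and Slc7a1 (TGACTCA) were higher and Slc25a11 and Slc4a10 (both TGATTCA) lower in adipocyte medium.

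The 5 sugar carriers moved in adipocyte medium alone at the threshold used: 2 were higher and 3 lower there, beside 33.8% and 63.4% of all genes tested, with a median of -1.33, and none of the 5 passed the test in stromal medium, where their log2 fold changes ran from -0.23 to 0.11. On the rescaled values 1 of the 5, Slc2a3, was called higher in stromal medium, beside 1129 of all 2868 genes tested. All 5 differed between the conditioned media in the direct contrast. That the class moved in adipocyte medium alone holds for these members only. Slc35d2, of the Slc35 family but with a symbol outside the rule, had -1.83 in adipocyte and -1.76 (adjusted p = 6.61e-07) in stromal medium. Slc35b4 and Slc35g1, also outside the rule, had -1.44 and -1.28 in adipocyte medium. In stromal medium they had -0.18 (adjusted p = 0.146) and -0.54 (adjusted p = 0.000949). Slc2a3 (ENSMUSG00000003153) encodes GLUT3, a high-affinity glucose importer of lymphocytes and neurons. Its normalized counts were 3391, 2983 and 2998 in unconditioned, 3787, 2990 and 3374 in stromal and 9909, 8826 and 8335 in adipocyte medium. The adipocyte samples were all far above the rest and the other 2 groups overlapped. The log2 fold change was 1.53 (SE 0.10, adjusted p = 3.99e-08) in adipocyte and 0.11 (adjusted p = 0.366) in stromal medium, with a direct contrast of 1.42 (adjusted p = 1.25e-07). Slc2a6 (ENSMUSG00000036067), which encodes the hexose transporter GLUT6 of lysosomal membranes, went the other way, with 273, 298 and 365 in unconditioned, 315, 283 and 257 in stromal and 119, 82.8 and 64.5 in adipocyte medium. Here the adipocyte samples were the lowest in every mouse, at a log2 fold change of -1.84 (SE 0.22, adjusted p = 4.34e-06).

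Slc37a4 (ENSMUSG00000032114) encodes the transporter that carries glucose 6-phosphate into the endoplasmic reticulum. It had 2091, 2191 and 2170 normalized counts in unconditioned, 1840, 1680 and 1988 in stromal and 719, 1026 and 516 in adipocyte medium. The adipocyte samples spread most between mice and were still all lower, with a log2 fold change of -1.57 (SE 0.19, adjusted p = 3.53e-06). Slc35a1, the carrier of CMP-sialic acid into the Golgi, fell by 1.33 on the log2 scale, from 1288 ± 88.9 to 513 ± 41.7 (SD, n = 3). Slc5a3, a sodium-driven importer of myo-inositol known to answer to osmotic stress, rose by 1.19, from 655 ± 128 to 1489 ± 228, and stood at 660 ± 94.9 in stromal medium. Of a list of 21 genes of glucose phosphorylation and lactate 5 were in the table, 2 higher and 3 lower in both media. Among all genes tested 33.8% were higher and 63.4% lower in adipocyte medium, and 21.1% and 36.6% in stromal medium. Pdk2, which encodes a kinase that holds back pyruvate dehydrogenase, had -1.77 and Pdk1 -1.64 in adipocyte medium, and Pfkp, a phosphofructokinase gene, 0.86.

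Of the 7 ion and metal carriers, 4 were higher and 3 lower in adipocyte medium, beside 33.8% and 63.4% of all genes tested, with a median of 0.84. In stromal medium 2 were higher and 2 lower, beside 21.1% and 36.6%, with a median of -0.17. The 2 magnesium transporter genes moved apart. Slc41a1 (ENSMUSG00000013275), which encodes a magnesium carrier of the plasma membrane, had 6792, 6647 and 6936 normalized counts in unconditioned, 5562, 5734 and 5788 in stromal and 17910, 13444 and 15910 in adipocyte medium. It was highest in adipocyte medium in every mouse and lowest in stromal medium in every mouse. Its log2 fold change was 1.20 (SE 0.10, adjusted p = 1.27e-07) in adipocyte and -0.25 (SE 0.10, adjusted p = 0.0365) in stromal medium, and the direct contrast was 1.46 (adjusted p = 7.43e-08). The stromal fall was not called without any 1 of the 6 libraries compared (adjusted p from 0.064 to 0.102), and on the rescaled values it was 0.10 (adjusted p = 0.448). Slc41a3 (ENSMUSG00000030089), its paralog, had 387, 369 and 496 in unconditioned, 320, 205 and 292 in stromal and 188, 162 and 97.7 in adipocyte medium. Its log2 fold change was -1.52 (SE 0.25, adjusted p = 6.81e-05) in adipocyte and -0.63 (adjusted p = 0.048) in stromal medium, and the stromal call ended without any 1 of 5 libraries, unconditioned replicates 1, 2 and 3 and stromal replicates 2 and 3 (adjusted p from 0.0653 to 0.189).

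The zinc carriers Slc30a4 and Slc30a9, which belong to the same family, both rose in adipocyte medium. Slc30a4 went from 813 ± 57.3 to 1555 ± 261 (SD, n = 3) there and to 1429 ± 101 in stromal medium, and the contrast between the conditioned media was 0.11 (adjusted p = 0.383). Slc30a9 rose by 0.84 on the log2 scale in adipocyte medium, from 4059 ± 266 to 7339 ± 1376, and had -0.17 (adjusted p = 0.243) in stromal medium. Slc11a2, which encodes the iron importer DMT1, went from 4383 ± 185 to 1955 ± 330 in adipocyte medium, a fall of 1.18 on the log2 scale that is not called on the rescaled values. The remaining members are low, and they are singled out after their values were seen. Slc24a1, a potassium-dependent sodium and calcium exchanger known from rod cells, was at 0, 6.95 and 7.09 in unconditioned, 10.9, 35.6 and 18.0 in stromal and 70.5, 45.9 and 42.0 in adipocyte medium. The groups did not overlap, but the direct contrast of adipocyte with stromal medium was not past the threshold (1.38, adjusted p = 0.0947). The stromal call ended without stromal replicate 2 (adjusted p = 0.08). Slc4a10, a sodium-coupled bicarbonate transporter, went from 37.5 ± 3.39 to 5.80 ± 1.70 in adipocyte medium.

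Of a list of 46 ion pump, channel and carrier partner genes 11 were in the table. In adipocyte medium 1 was higher and 10 lower, beside 33.8% and 63.4% of all genes tested, and in stromal medium 1 was higher and 9 lower, beside 21.1% and 36.6%. On the rescaled values 3 were higher and 4 lower in adipocyte medium, and 1 higher and 8 lower in stromal medium. Of all 2868 genes tested, 1078 and 1047 were so called in adipocyte and 1129 and 561 in stromal medium. The potassium channel subunit gene Kcnab2 had -1.84 in adipocyte medium, the water and glycerol channel gene Aqp3 -1.92 and the sodium pump subunit gene Atp1b1 -1.16.

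Of the 10 mitochondrial carriers, 8 were lower and 2 higher in adipocyte medium, with a median of -1.35, beside 63.4% lower and 33.8% higher among all genes tested. In stromal medium 5 were lower and 1 higher, with a median of -0.30, beside 36.6% and 21.1%. On the rescaled values 6 were lower and 2 higher in adipocyte medium, and 2 lower and 3 higher in stromal medium. Of all 2868 genes tested, 1047 were so called lower and 1078 higher in adipocyte medium, and 561 and 1129 in stromal medium. The deepest fall of all 45 members was that of Slc25a10 (ENSMUSG00000025792), the dicarboxylate carrier, which exchanges malate and succinate for phosphate. It had 771, 865 and 782 normalized counts in unconditioned, 1264, 911 and 1082 in stromal and 108, 161 and 123 in adipocyte medium. The adipocyte samples were the lowest and the stromal samples the highest, with no overlap. The log2 fold change was -2.63 (SE 0.17, adjusted p = 3.1e-08) in adipocyte medium and the contrast of adipocyte with stromal medium -3.05 (SE 0.17, adjusted p = 3.11e-08). The stromal rise of 0.42 (adjusted p = 0.0467) was not called with the mouse as a block (0.0606) or without any 1 of unconditioned replicates 1, 2 and 3 and stromal replicates 1 and 3 (0.0693 to 0.181). Rescaled, it was 0.78 (adjusted p = 0.000928).

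Slc25a11 (ENSMUSG00000014606) encodes the oxoglutarate and malate carrier, a part of the malate-aspartate shuttle that brings reducing equivalents into mitochondria. It went from 5806, 6174 and 5937 in unconditioned to 4405, 4275 and 4509 in stromal and 1455, 1550 and 1427 in adipocyte medium. Its 3 groups were well apart and tight, and the log2 fold change of -2.02 in adipocyte medium had an SE of 0.07 (adjusted p = 2.8e-09). In stromal medium it was -0.44 (adjusted p = 0.000188), not called on the rescaled values. Slc25a1, the citrate carrier that supplies cytosolic acetyl-CoA for lipid synthesis, had 2982 ± 158 in unconditioned, 3428 ± 487 in stromal and 1034 ± 50.7 (SD, n = 3) in adipocyte medium, a fall of 1.53 on the log2 scale. Slc25a16 fell by 1.74 and Slc25a45 by 1.42 on the same scale in adipocyte medium. In stromal medium Slc25a45 fell by 0.77, and Slc25a16 had -0.30 (adjusted p = 0.047), not called with the mouse as a block (0.0584) or without any 1 of unconditioned replicates 1, 2 and 3 and stromal replicates 2 and 3 (0.0584 to 0.164). Slc25a53, singled out after its values were seen, had -0.31 in stromal medium (adjusted p = 0.0686), called with the block (0.0378).

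Slc25a40, a mitochondrial glutathione carrier, was lowest in stromal medium, unlike most of the class. Its normalized counts were 1385, 1352 and 1405 in unconditioned, 705, 740 and 701 in stromal and 899, 770 and 902 in adipocyte medium. It fell by 0.95 on the log2 scale in stromal medium (adjusted p = 5.82e-06), had -0.69 in adipocyte medium (0.23 on the rescaled values) and was 0.26 higher in adipocyte than in stromal medium (adjusted p = 0.0227). That last difference was not called without any 1 of adipocyte replicates 1 and 3 and stromal replicates 1 and 3 (adjusted p from 0.0538 to 0.0759).

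The mitochondrial carriers that rose in adipocyte medium were Slc25a20 and Slc25a25. Slc25a20 (ENSMUSG00000032602) encodes the carnitine and acylcarnitine carrier, which takes fatty acids into the matrix for oxidation. It had 2205, 2355 and 2588 normalized counts in unconditioned, 2582, 2260 and 2279 in stromal and 5848, 5971 and 5431 in adipocyte medium. Stromal and unconditioned samples overlapped and every adipocyte sample was above both. Its log2 fold change was 1.27 (SE 0.09, adjusted p = 4.92e-08) in adipocyte and -0.01 (adjusted p = 0.966) in stromal medium. Slc25a25 (ENSMUSG00000026819) encodes a calcium-regulated exchanger of ATP-magnesium for phosphate. It went from 3162, 3127 and 3017 in unconditioned to 2820, 3000 and 2445 in stromal and 10998, 7168 and 11003 in adipocyte medium, a log2 fold change of 1.62 (SE 0.14, adjusted p = 3.11e-07) in the last. Its paralog Slc25a24, with the same substrates, went from 1130, 841 and 1072 in unconditioned to 698, 606 and 709 in stromal and 426, 443 and 372 in adipocyte medium. One exchanger of this pair was thus at its highest and the other at its lowest in adipocyte medium in every mouse. Of a list of 46 other solute carrier genes with symbols outside the rule 8 were in the table. In adipocyte medium 4 were higher and 4 lower, beside 33.8% and 63.4% of all genes tested. That list lacks Slc35b4, Slc35d2 and Slc35g1, each of which was lower in adipocyte medium. Of the 8, the uncoupling protein gene Ucp2 had -2.29, the mitochondrial serine carrier family gene Sfxn2 -1.91 and Sfxn3 -0.94.

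**Figure D2:**
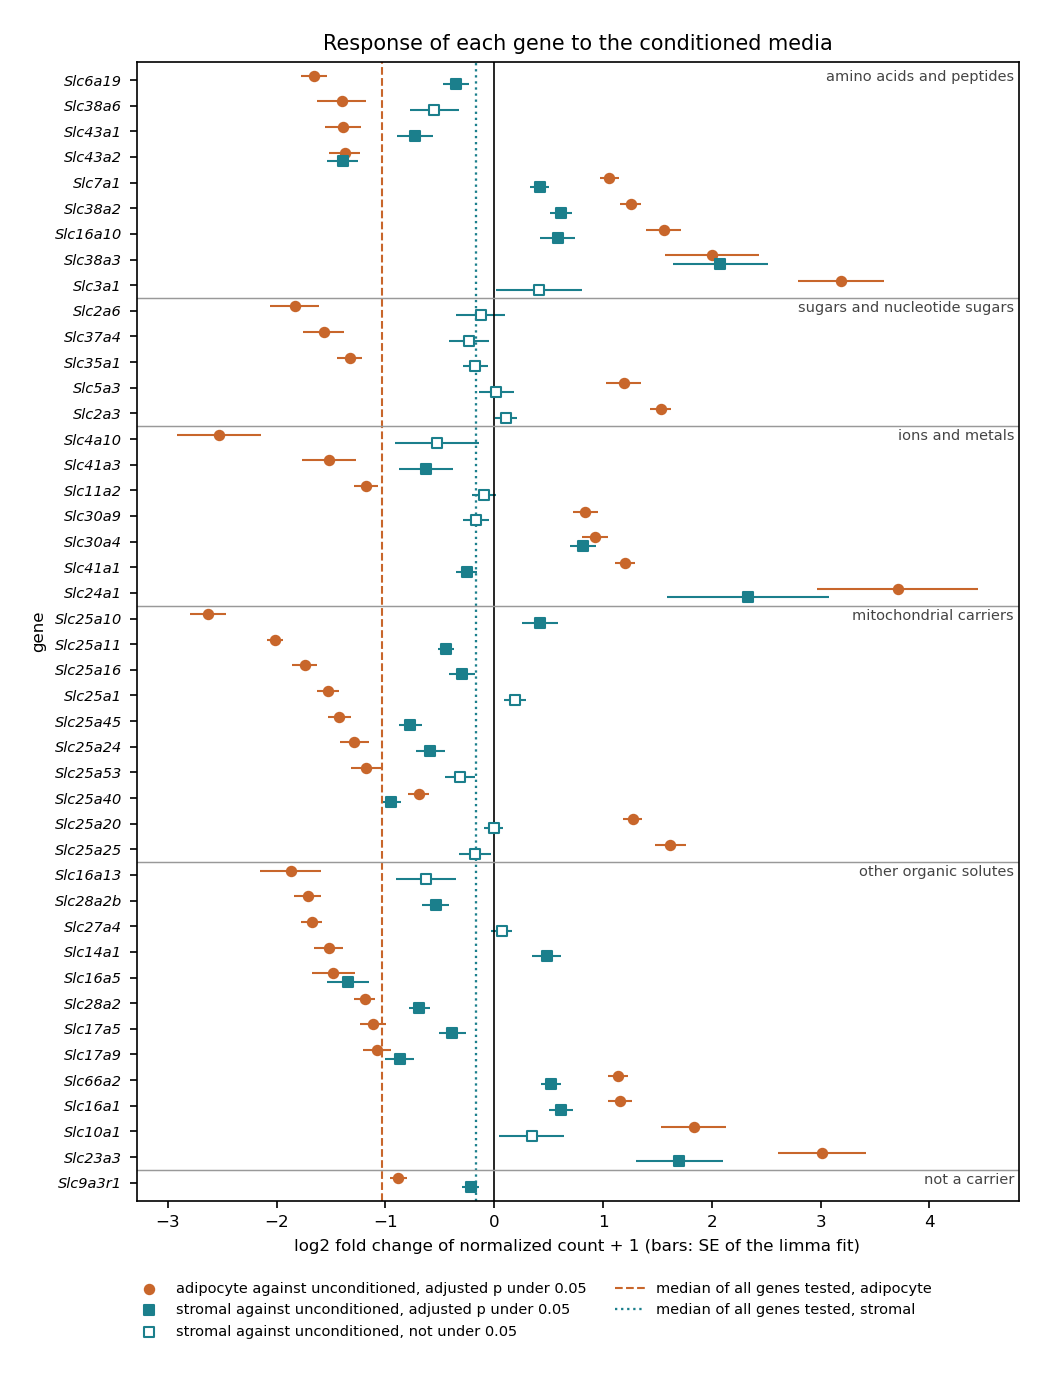
Log2 fold change of 44 of the 45 genes against unconditioned medium, by substrate class, in adipocyte medium (circles) and stromal medium (squares), with bars for 1 SE and open symbols where the adjusted p is not under 0.05. The dashed and dotted lines mark the medians of all genes tested, -1.03 and -0.17, and most mitochondrial carriers lie at or left of the adipocyte line while Slc25a20 and Slc25a25 lie to the right at 1.27 and 1.62.

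Of the 13 carriers of other organic solutes, 5 were higher and 8 lower in adipocyte medium, with a median of -1.11, a split near the 33.8% and 63.4% of all genes tested. In stromal medium 5 were higher and 5 lower, beside 21.1% and 36.6%, with a median of 0.07. Slc16a1, which encodes MCT1, the carrier of lactate and pyruvate, had 5680, 5250 and 5011 normalized counts in unconditioned, 9221, 7279 and 8044 in stromal and 13401, 12032 and 10341 in adipocyte medium. The 3 groups followed each other without overlap. It rose by 1.16 (SE 0.11, adjusted p = 5.01e-07) and by 0.62 (adjusted p = 0.000426) on the log2 scale.

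Slc16a5 and Slc16a13, of the same monocarboxylate family, were lower. Slc16a5 went from 248 ± 11.1 to 98.2 ± 20.5 in stromal and 88.4 ± 3.53 (SD, n = 3) in adipocyte medium, with a contrast between these of -0.13 (adjusted p = 0.527). Slc16a13 fell by 1.87 on the log2 scale in adipocyte medium. Within this family the lactate carrier gene and Slc16a10, described with the amino acid transporters, were higher in adipocyte medium, and Slc16a5 and Slc16a13 lower.

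The most abundant member of the class was Slc28a2b (ENSMUSG00000079071), which belongs with Slc28a2 to the sodium-driven importers of purine nucleosides and uridine. Its normalized counts were 25544, 25487 and 24297 in unconditioned, 14631, 16870 and 20945 in stromal and 6919, 8733 and 7438 in adipocyte medium. It fell in steps with no overlap, by 0.54 (adjusted p = 0.00262) in stromal and by 1.71 (adjusted p = 6.93e-08) in adipocyte medium. Slc28a2 went from 14921 ± 787 to 9305 ± 1257 and 6535 ± 301 (SD, n = 3). The 2 genes are close copies, and the sources used here do not say how reads were split between them.

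Slc14a1 (ENSMUSG00000059336) encodes the urea transporter UT-B, which carries the Kidd blood group on human red cells. It had 1337, 1306 and 1251 normalized counts in unconditioned, 1755, 1901 and 1790 in stromal and 499, 520 and 355 in adipocyte medium. Stromal samples were highest and adipocyte samples lowest in every mouse. It rose by 0.48 (SE 0.13, adjusted p = 0.00764) in stromal medium, fell by 1.52 on the log2 scale (adjusted p = 2.65e-07) in adipocyte medium, and kept both calls whichever library or mouse was left out. Car1, the only listed gene of 10 erythroid markers, had 259 to 430 normalized counts in unconditioned, 539 to 1776 in stromal and 74.8 to 146 in adipocyte medium, and its part in the levels of Slc14a1 was not tested.

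Slc23a3 (ENSMUSG00000026205), an orphan of the ascorbate transporter family, had 42.9, 13.9 and 20.4 normalized counts in unconditioned, 100, 56.1 and 82.6 in stromal and 161, 294 and 152 in adipocyte medium. The order held without overlap between groups, and the log2 fold change was 3.01 (SE 0.40, adjusted p = 1.05e-05) in adipocyte and 1.70 (adjusted p = 0.00312) in stromal medium. Slc66a2, of the PQ-loop family, rose by 1.14 and by 0.52. Slc27a4, which encodes the fatty acid transport protein FATP4, had 2985 ± 62.9 in unconditioned, 3148 ± 360 in stromal and 934 ± 74.5 (SD, n = 3) in adipocyte medium, a fall of 1.68 on the log2 scale. Slc17a9, the vesicular ATP carrier, fell by 1.08 in adipocyte and by 0.87 in stromal medium on the same scale. Slc10a1, the bile acid importer of hepatocytes, and the lysosomal sialic acid exporter Slc17a5 are singled out after their values were seen. Slc10a1 went from 22.7 ± 4.41 to 83.1 ± 8.93 in adipocyte medium and Slc17a5 from 1173 ± 105 to 541 ± 48.0.

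**Figure D3:**
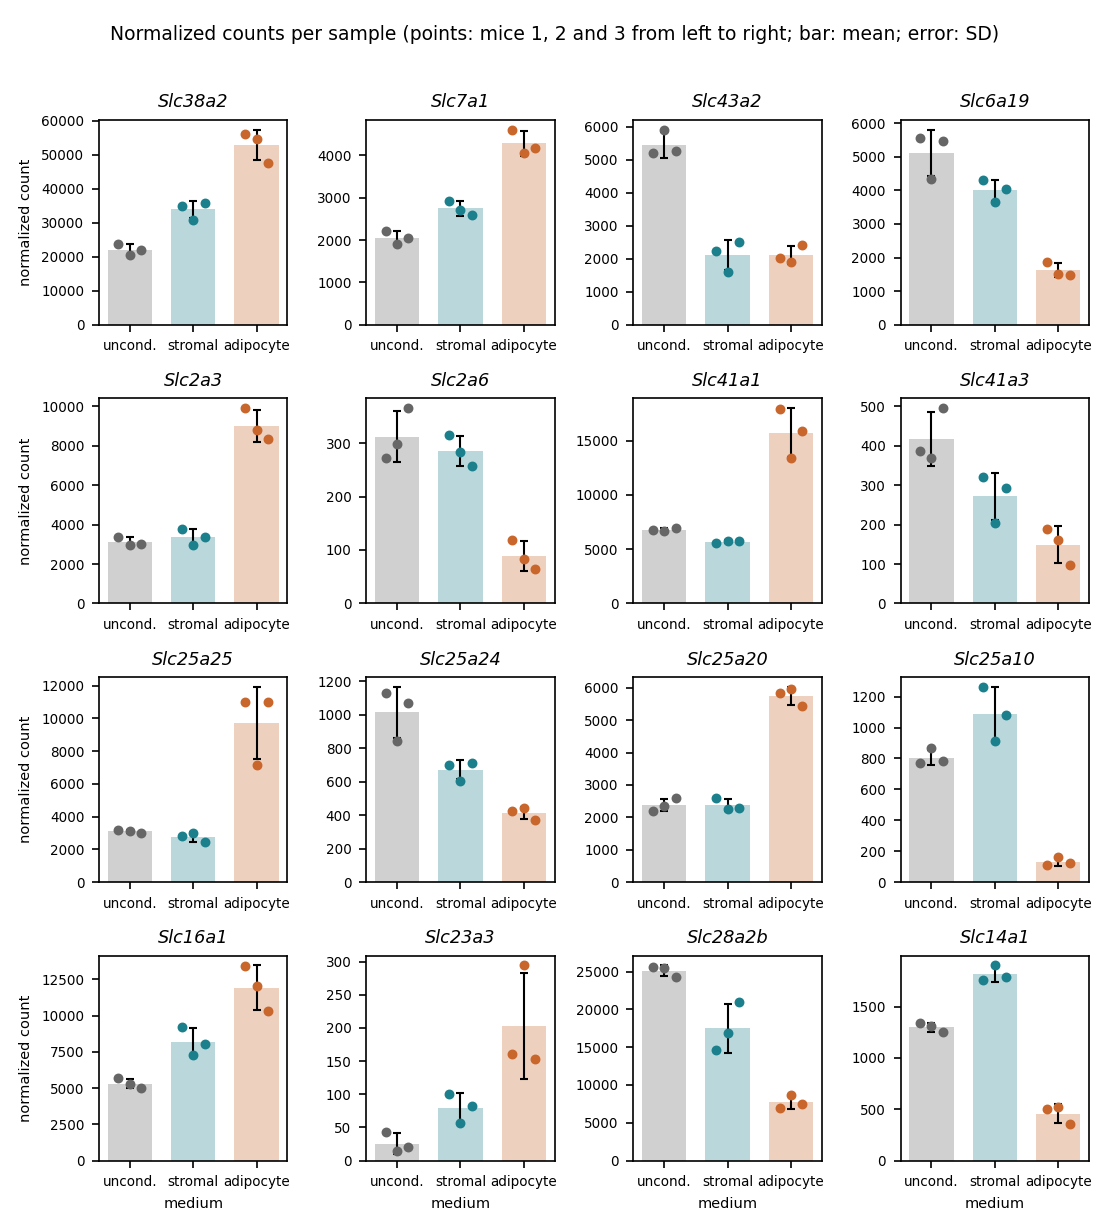
Normalized counts of 16 members in each of the 9 samples (points, mice 1 to 3), with the group mean as a bar and the SD (n = 3) as error bar, each panel with its own axis from 0. Slc38a2, Slc7a1, Slc16a1 and Slc23a3 step up from unconditioned through stromal to adipocyte medium, and Slc25a10 and Slc14a1 are highest in stromal and lowest in adipocyte medium.

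The scaffold gene Slc9a3r1 (ENSMUSG00000020733) had 12739, 13546 and 13666 normalized counts in unconditioned, 12009, 10891 and 11557 in stromal and 7198, 7742 and 6754 in adipocyte medium. The groups did not overlap, and the log2 fold change was -0.88 (SE 0.08, adjusted p = 2.89e-07) in adipocyte and -0.21 (adjusted p = 0.0325) in stromal medium. On the rescaled values these were 0.04 (adjusted p = 0.602) and 0.14, and the stromal call also ended without unconditioned replicates 2 or 3 or stromal replicates 2 or 3 (adjusted p from 0.0642 to 0.106).

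Both media are measured against the same unconditioned samples, so their calls are set side by side and not tested against each other except in the direct contrast. In both, 10 members were higher, among them Slc7a1, Slc38a2, Slc16a10, Slc38a3, Slc30a4, Slc24a1, Slc66a2, Slc16a1 and Slc23a3. Another 15 were lower in both, beside 49.5% of all genes tested that passed in both in the same direction. Opposite calls were found in 3 members, against 5.51% of all genes tested: Slc41a1, higher in adipocyte and lower in stromal medium, and Slc25a10 and Slc14a1, the reverse. Of these, Slc14a1 had both calls in each of the 12 fits that left out 1 library or 1 mouse. A further 7 members were higher and 10 lower in adipocyte medium with no call in stromal medium. By group means, 21 of the 45 genes were ordered with unconditioned highest and adipocyte lowest and 13 the reverse, with stromal medium between. The shares of all genes tested with a call in adipocyte medium alone, or with these orders, were not counted. These numbers therefore show nothing particular to the members.

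Paralogs moved together in some families and apart in others. Of the 24 numbered families, 9 had more than 1 member listed. In adipocyte medium 5 of these held both higher and lower members, namely Slc2, Slc16, Slc25, Slc38 and Slc41. Slc17, Slc28 and Slc43 were lower throughout and Slc30 higher throughout. Among all genes tested 33.8% were higher and 63.4% lower in that medium. Families of other genes were not counted, so these numbers show nothing particular to paralogs. On the rescaled values 4 families still held both directions, Slc38 having lost its fall. Slc17 kept no call there, while Slc28, Slc43 and Slc30 kept theirs.

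Groups did not overlap in 17 of the higher and 27 of the lower members in adipocyte against unconditioned medium, against 33.6% and 63.4% of all genes, in 12 and 21 in stromal against unconditioned medium, against 25.1% and 44.2%, and in 16 and 24 between the conditioned media, against 33.4% and 56.2%. Over the 12 leave-out fits, 44 of 45 adipocyte calls, 19 of 28 stromal calls and 34 of 39 calls between the conditioned media were made every time. The same was not counted over all genes tested. Beside the stromal calls already named, those of Slc17a5 (without unconditioned replicate 2 or 3 or stromal replicate 2, adjusted p from 0.0678 to 0.0738) and Slc16a10 (without mouse 1, 0.0546) ended. Stromal falls numbered 10 without unconditioned replicate 3 and 10 without stromal replicate 2, against 16 with all libraries. Most members are well counted: 33 of 45 had at least 100 reads in every library, and Slc38a3, Slc4a10 and Slc24a1 had under 10 in at least 1. Exon bases of 10 members are shared with another gene, and Slc3a1 is the only one above 25%.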

How the data were processed

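RNA of 9 samples, 3 per medium, was measured. The deposited sample table gives a normalized signal per gene. In each sample 100% of its values are whole multiples of a single step, within 0.001 reads, so the authors scaled read counts by a factor common to all genes of the sample. Tools named in the submitters' processing notes are FastQC, Trimmomatic, DESeq2 and featureCounts, with no versions. The sources used here give no aligner, annotation or strand setting, and no build for the counts. Per the file headers, the authors' deposited comparison tables give for each gene the mean signal, the log2 fold change and its error, the test score and the p-value, raw and adjusted. Only the membership of genes in them was used here.

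Values were tested as log2(value + 1) by limma-trend (limma 3.58.1, R 4.3.3) on the 2868 genes with a mean of at least 1, all 9 samples in 1 fit with the medium as the only factor, two-sided, Benjamini-Hochberg adjusted over all genes tested, at 0.05. Every one of the 45 members passed this filter, and 1 of them is counted but not reported here. Samples of the same number come from the same mouse, so the mouse pairs them, and the correlation of their deviations from the group means was -0.12 to 0.26 over 9 pairs. An exact permutation test of 3 samples against 3 cannot go below 0.1, so none was made. The p-values measure the spread between cells of 3 mice. The code was tested on simulated data. Alternatives were pseudocounts of 0.25 and 5, no filter, a minimum mean of 50, rescaling by the median of ratios, the mouse as a block, edgeR 4.0.16 and DESeq2 1.42.0 on recovered reads, and leaving out each library or mouse.

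Genes named with values were, per class and comparison, up to 3 rises and 3 falls of largest size among members past the threshold with 1 sign in all mice and a mean of at least 50, and members of opposite response. Values of every sample were given by rule for the 2 members per class with the largest change and for those of opposite response; sample values of Slc38a2, Slc7a1, Slc43a2, Slc2a3, Slc25a20, Slc25a24, Slc25a25, Slc25a40, Slc16a1, Slc28a2b and Slc24a1 were added after the values were seen. From each other list at most 3 genes were named, those of smallest adjusted p in adipocyte against unconditioned medium. The markers Clec9a, Cd14 and Ngp and the genes Slc35b4, Slc35d2 and Slc35g1 were named besides, after their values were seen. The members and all lists were chosen with earlier results of these data known. Exon overlap was read from GENCODE M21 by Ensembl gene identifier, and promoters from RefSeq on GRCm38.p6 by gene symbol.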

Additional observations from a re-analysis of the deposited data

How the results depend on the processing

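In adipocyte against unconditioned medium the 18 higher members were called under every alternative but the minimum mean of 50, which leaves out low genes, and some fits without 1 library or mouse, which called 17. Rescaling by the median of ratios moved most. It took the lower members from 16 to 6 in stromal against unconditioned and from 24 to 15 in adipocyte against stromal medium, by its own construction an upward shift. Among genes called under the authors' scaling or under this one, it turned the sign of Slc9a3r1 (0.044) and Slc25a40 (0.23) in adipocyte against unconditioned medium. In stromal against unconditioned medium it turned the median of the members (0.18), of the sugar carriers (0.23), ion carriers (0.19) and mitochondrial carriers (0.052), and, among genes so called, Slc9a3r1 (0.14), Slc25a16 (0.061), Slc25a20 (0.35), Slc41a1 (0.10) and Slc6a19 (0.008). In adipocyte against stromal medium it turned the median of the other organic solutes (0.067) and, among genes so called, Slc16a5 (0.43), Slc17a9 (0.36) and Slc28a2 (0.067). Signs of some genes called under neither scaling turned as well. A minimum mean of 50 turned the amino acid carriers' median in adipocyte medium to -0.16, as fewer genes were tested. Leaving out libraries or mice gave 17 to 18 higher and 27 lower members in adipocyte medium, 10 to 12 higher and 10 to 18 lower in stromal medium, and 14 to 16 higher and 21 to 25 lower between the conditioned media. With the mouse as a replicate block there were 18 higher and 27 lower, 11 and 16, and 15 and 25, and beyond Slc25a10, Slc25a16, Slc25a53 and Slc17a9 (adipocyte against stromal) no call of a member changed. With edgeR or DESeq2 on recovered reads there were 18 and 27, 12 and 18, and 16 and 24. All genes were selected on these samples, which limits every count, and depth limits Slc38a3, Slc4a10 and Slc24a1.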
